A study of Homo sapiens with 6 samples.

Results

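The genes described here encode TFIID, the complex that recognises promoters, and the general transcription factors TFIIA, TFIIB, TFIIE, TFIIF and TFIIH. They were taken by name from GENCODE release 29: protein-coding genes called TAF and a number, genes whose symbol begins with GTF2A, GTF2B, GTF2E, GTF2F or GTF2H, and TBP. Of 58096 genes in the count files 41 met this rule. The rule itself uses names and no measured value. RNA came from ALL-SIL, an established human T-cell acute lymphoblastic leukaemia line with a TLX1 rearrangement, and the design compared 3 libraries from cells given JQ1, which competes with acetylated histones for the bromodomains of BET proteins, with 3 libraries from cells given DMSO, the solvent. The labels name 1 µM JQ1 and 24 h as the treatment of all 6 libraries, so the DMSO group is known from the sample titles only. All libraries come from this single line. Nothing in the labels says that replicates were separate cultures, so the p-values rest on a spread among libraries that may be only technical.

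Transcription by RNA polymerase II starts when TFIID, made of the TATA-binding protein TBP and a set of TBP-associated factors (TAFs), binds the core promoter. TFIIA and TFIIB then join, TFIIF brings the polymerase, and TFIIE recruits TFIIH, whose helicase opens the DNA and whose kinase phosphorylates the polymerase tail. Many TAFs carry histone folds and pair with each other: TAF4 with TAF12, TAF6 with TAF9, TAF3 or TAF8 with TAF10, and TAF11 with TAF13. Some TAFs are shared with SAGA, a histone acetyltransferase complex, and TAF1A to TAF1D belong to SL1, which binds the promoter of ribosomal RNA genes for RNA polymerase I.

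Gene counts per library ran from 15925885 to 25293884. Levels are given as CPM, each count scaled to a fixed normalised library size, and changes as the log2 ratio of JQ1 to DMSO with ± 1 standard error (SE), from edgeR's quasi-likelihood test over all 13975 tested genes, called at a Benjamini-Hochberg adjusted p under 0.05. MYC, whose RNA is known to fall under BET inhibition in T-cell leukaemia, had a mean of 358 CPM in DMSO and 135 CPM in JQ1, and HEXIM1, which is known to rise, had 29.8 and 89.3 CPM. The list of 12 T-cell markers included TLX1, which is rearranged in this line. All were tested, 8 of them lower and 1 (TLX1) higher. Their summed level was 1783 to 1969 CPM in DMSO and 1198 to 1457 CPM in JQ1, of which TLX1 held means of 182 and 249 CPM. The summed level of 5 myeloid, 4 erythroid and 5 epithelial markers ran from 0.246 to 0.493, 0 to 0.0393 and 0.0985 to 0.236 CPM in DMSO and from 0.0808 to 0.329, 0 to 0 and 0.0645 to 0.243 CPM in JQ1, with HBA1, HBA2, HBB and KRT19 at 0. For 5 B-cell markers the sum was 11.5 to 24.5 CPM in DMSO and 1.61 to 6.35 CPM in JQ1, led by CD79A (means 8.15 and 2.95 CPM) and CD79B (8.80 and 1.23 CPM), and MS4A1 was at 0. For 5 fibroblast markers it was 7.83 to 10.6 and 2.51 to 3.33 CPM, led by PDGFRB (means 9.16 and 3.01 CPM), with COL1A2, COL3A1 and DCN at 0. Their part in the results was not tested.

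Of the 41 genes 36 passed the filter on low counts, and 8 of them rose and 3 fell. In the same fit 15.9% of all tested genes rose, 20.6% fell and 36.6% were called in either direction, beside 22.2%, 8.33% and 30.6% of the members. All JQ1 libraries lay above all DMSO libraries for 11 members and below them for 3, where 22.9% and 26.0% of all tested genes did so (48.9% in either direction). In such bulk RNA a lower level in each cell and fewer cells that hold the RNA cannot be told apart. The rises were TAF12, TAF10, GTF2B, TAF3, TAF15, TAF7, TAF6 and TAF8, and the falls were TAF4B, GTF2H1 and GTF2F1. No member was called with a change above 2-fold, where 10.4% of all tested genes were. The median size of the log2 change, whatever its sign, was 0.18 over the members and 0.32 over all tested genes. With the replicate number as a block, 12 members were higher and 6 lower, where 27.3% and 29.6% of all genes were called (56.9% in either direction).

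**Figure D1:**
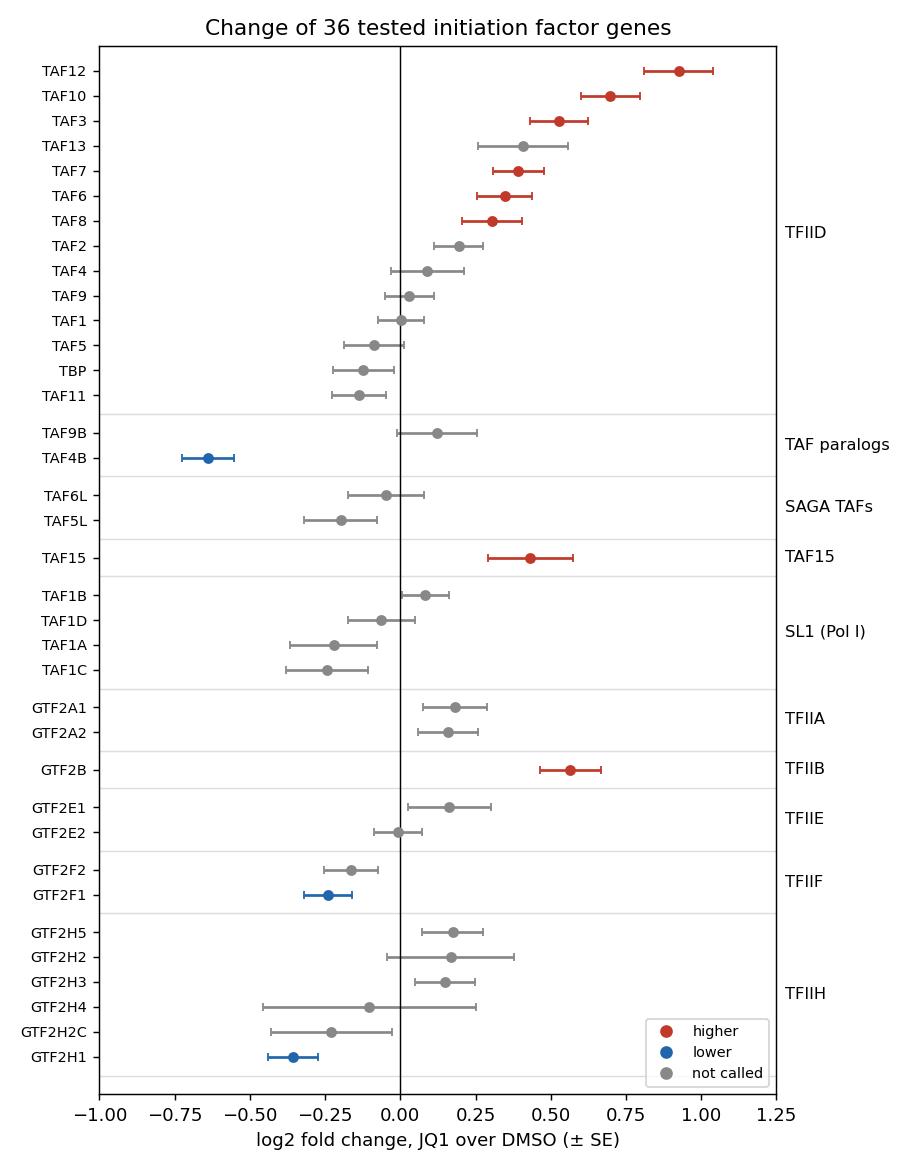
Log2 fold change of JQ1 over DMSO (horizontal axis, points, with bars of 1 SE) for the 36 tested genes, grouped by complex; red points rose, blue points fell and grey points were not called by edgeR. All points lie between -0.64 (TAF4B) and 0.92 (TAF12). The TFIID block, which leaves out the paralogs TAF4B and TAF9B, holds 14 of the 36 points and 6 of the 8 red ones. Over all tested genes 15.9% rose.

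The paralogs TAF4B, which fell, and TAF9B, not called, were counted apart from the complex, a split made with earlier results known. The complex without them, TBP and 13 TAFs, had 6 genes higher, 0 lower and 8 without a call. Over all tested genes 15.9% were higher and 20.6% lower. The absence of a fall rests on that split. At an unadjusted p under 0.05 edgeR gave 8 higher and 0 lower, where 21.4% and 24.7% of all tested genes were higher and lower. In the alternatives 0 of these TFIID genes, without the paralogs, were lower. Higher were 4 with unstranded counts, 5 with scaling by size alone, 6 with DESeq2, 8 with the replicate block and 5 to 6 with 1 library left out. The complex's median log2 change was 0.25, beside 0.09 for all 36 members and 0.00 for all tested genes. This median rests on the same split, as the 2 tested paralogs had a median of -0.26. The largest change was that of TAF12, a histone-fold subunit of both TFIID and SAGA. TAF12 (ENSG00000120656.11, chromosome 1, 28589323 to 28643085, minus strand) had 23.9, 29.1 and 22.0 CPM in DMSO replicates 1, 2 and 3, and 47.6, 49.6 and 45.3 CPM in JQ1 replicates 1, 2 and 3. Every JQ1 library lay above every DMSO library. TAF12 rose 1.90-fold (log2 change 0.92 ± 0.12, edgeR adjusted p = 0.00023, higher in 3 of 3 replicate numbers).

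TAF10, a histone-fold subunit that also serves both complexes, came next. TAF10 (ENSG00000166337.9, chromosome 11, 6606296 to 6612667, minus strand) had 29.7, 30.5 and 34.5 CPM in DMSO and 47.3, 52.6 and 54.0 CPM in JQ1, in replicate order, again with no overlap. It rose 1.62-fold (log2 change 0.70 ± 0.10, edgeR adjusted p = 0.00047). On the same strand AC091564.7 and AC091564.3 cover 16.75% of the TAF10 exons, where reads count for neither gene. TAF10 lies against ILK on the opposite strand, which covers 38.9% of its exon length, and opposite-strand reads amounted to 64.5% of its own. For these opposite-strand reads the log2 change was 0.11 ± 0.14 (adjusted p = 0.67 when edgeR was run on that strand), and without regard to strand the TAF10 change was 0.68 (edgeR adjusted p = 0.00049).

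Both known histone-fold partners of TAF10 in TFIID rose as well. TAF3, whose finger domain reads trimethylated lysine 4 of histone H3, had 18.6, 17.9 and 18.2 CPM in DMSO and 26.6, 26.7 and 25.5 CPM in JQ1, with no overlap and the closest replicates among the rises. The log2 change of TAF3 was 0.53 ± 0.10 (edgeR adjusted p = 0.0021). TAF8, which carries TAF10 into the complex, had 78.8, 80.4 and 70.5 CPM in DMSO and 84.9, 104.8 and 94.3 CPM in JQ1. Its groups did not overlap, but the step from the highest DMSO to the lowest JQ1 library was small. The log2 change of TAF8, 0.31 ± 0.10, passed the test (edgeR adjusted p = 0.035). It no longer passed when JQ1 replicate 2 or 3 or DMSO replicate 1 or 3 was left out (0.23 to 0.33, edgeR adjusted p between 0.062 and 0.12), when libraries were scaled by size alone (adjusted p = 0.061) or when strand was ignored (adjusted p = 0.055).

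TAF7, which binds TAF1 and restrains its activity, had 119, 131 and 116 CPM in DMSO and 154, 161 and 165 CPM in JQ1. All JQ1 libraries were above all DMSO libraries, and TAF7 rose by 0.39 ± 0.09 (edgeR adjusted p = 0.0051). TAF6, a histone-fold subunit, had 29.5, 28.6 and 29.7 CPM in DMSO and 35.0, 38.6 and 38.2 CPM in JQ1. TAF6 rose by 0.35 ± 0.09 (edgeR adjusted p = 0.013). AP4M1 and CNPY4 cover 28.3% of the TAF6 exons from the other strand. The count without regard to strand, where such overlaps count for neither gene, was 62.3% of the stranded one and did not call TAF6 (0.26, edgeR adjusted p = 0.087).

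The other TFIID genes were not called. TBP, the DNA-binding subunit (ENSG00000112592.13, chromosome 6, 170554302 to 170572870), had 37.3, 35.0 and 35.5 CPM in DMSO and 34.5, 29.2 and 35.3 CPM in JQ1. The groups overlapped, with JQ1 replicate 2 the lowest, and the log2 change was -0.12 ± 0.10 (edgeR adjusted p = 0.37). TAF1, the largest subunit and a scaffold with a tandem bromodomain, differed least, with 84.0, 84.5 and 84.1 CPM in DMSO and 86.4, 85.5 and 81.1 CPM in JQ1 (log2 change 0.00 ± 0.08). TAF2, which contacts the initiator element, had 155, 145 and 153 CPM in DMSO and 174, 171 and 173 CPM in JQ1. The TAF2 groups did not overlap, and its change of 0.19 ± 0.08 had an edgeR adjusted p of 0.084, and 0.0068 with the replicate block. TAF13 had 6.90, 7.54 and 6.02 CPM in DMSO and 8.45, 9.43 and 9.28 CPM in JQ1, again without overlap. Its change of 0.41 ± 0.15 was as large as that of TAF7 but rested on fewer reads (edgeR adjusted p = 0.056, and 0.0073 with the replicate block). TAF4, TAF5, TAF9 and TAF11 had log2 changes of 0.09, -0.09, 0.03 and -0.14, all with overlapping groups. AK6 covers 20.57% of the TAF9 exons on the same strand, where reads count for neither gene. Reads from the opposite strand were tested for 11 members, and those at TAF5 (52.6% of its own reads) and GTF2F1 (1.07%) were lower under JQ1, with log2 changes of -0.44 ± 0.13 and -1.07 ± 0.32 (edgeR adjusted p = 0.022 and 0.021), where 17.8% of all genes tested on that strand were called.

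**Figure D2:**
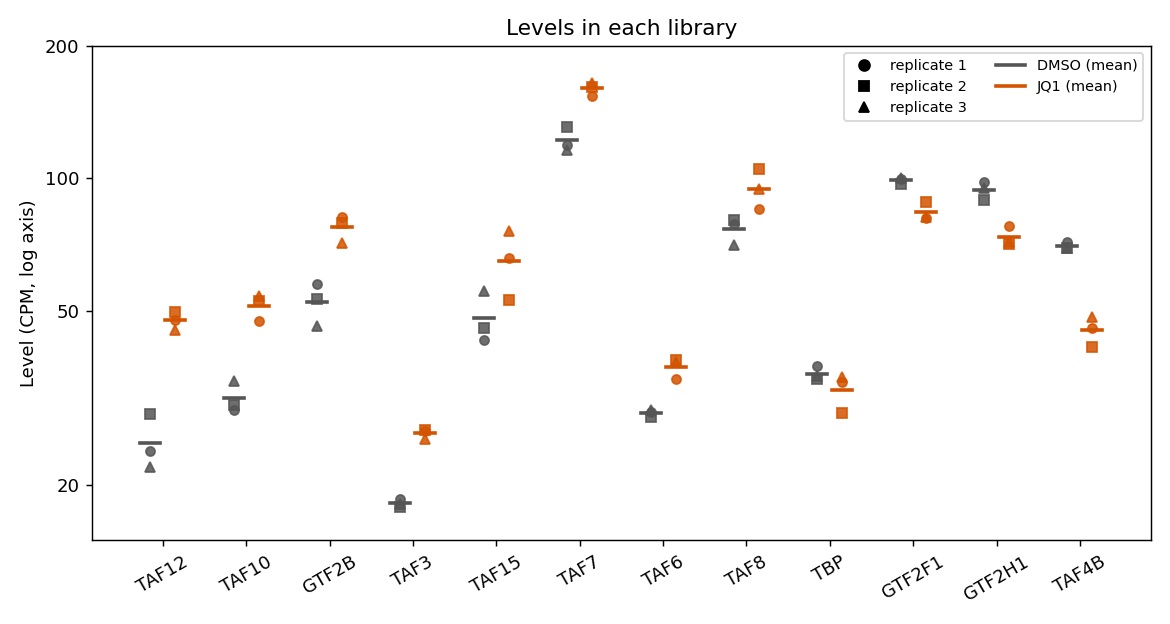
Level in CPM (vertical log axis) of the 11 called genes and TBP in each library, with symbols for the replicate number, grey for DMSO, orange for JQ1 and a bar at each mean. The orange points lie above the grey ones for TAF12, TAF10, GTF2B, TAF3, TAF7, TAF6 and TAF8 and below them for GTF2F1, GTF2H1 and TAF4B, while those of TAF15 and TBP overlap.

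Of the TAF paralogs 1 of 2 tested fell, where 20.6% of all tested genes did. TAF4B, the TAF4 relative enriched in lymphoid and germ cells, was the member that fell furthest. TAF4B (ENSG00000141384.12, chromosome 18, 26225936 to 26391685, plus strand) had 71.5, 69.5 and 69.4 CPM in DMSO and 45.6, 41.4 and 48.3 CPM in JQ1, with a wide gap between the groups. It fell 1.56-fold (log2 change -0.64 ± 0.09, edgeR adjusted p = 0.00039, lower in 3 of 3 replicate numbers). TAF9B, a relative of TAF9, had 38.1, 35.2 and 34.8 CPM in DMSO and 33.5, 36.0 and 48.4 CPM in JQ1. JQ1 replicate 3 stood above the rest, and the change of 0.12 ± 0.13 (edgeR adjusted p = 0.51) turned to -0.05 without that library. TAF7L, TAF1L, TAF11L12 and TAF11L14, known from testis or from a retrogene cluster, and the germ-cell TFIIA gene GTF2A1L did not pass the filter. TAF7L had 3 to 18 reads per library, TAF1L at most 3, GTF2A1L a single read in all 6 libraries, and both TAF11L genes 0.

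Counts within a library need no scaling, so ratios of partner genes were followed as well. The TAF4B count was 4.08, 3.78 and 3.63 times the TAF4 count in DMSO and 2.44, 2.35 and 2.16 times in JQ1. Per kilobase of exon TAF4B was the more abundant of the pair, with 13.0 ± 0.217 against 1.87 ± 0.0816 CPM per kb in DMSO and 8.36 ± 0.643 against 1.996 ± 0.252 CPM per kb in JQ1 (SD, n = 3). With the principal transcript length the DMSO levels were 13.3 ± 0.223 and 3.97 ± 0.173 CPM per kb, a narrower gap. The TAF12 count was 0.335, 0.419 and 0.317 times the TAF4B count in DMSO and 1.05, 1.20 and 0.937 times in JQ1, so the groups were far apart. This ratio went from -1.50 ± 0.21 to 0.08 ± 0.18 on the log2 scale (SD, n = 3), which restates the rise of TAF12 and the fall of TAF4B given above. TAF6 over TAF9 moved by 0.32, from -0.74 ± 0.06 to -0.42 ± 0.10, and TAF13 over TAF11 by 0.55, from -2.92 ± 0.17 to -2.36 ± 0.16, both without overlap. TAF10 over TAF3 moved by 0.17 with overlapping groups. The ratios are read as descriptions, since the pairs were formed with the changes of their genes known. An exact permutation of the group labels gave p = 0.1 for each ratio but TAF10 over TAF3 (p = 0.2). With 3 libraries per group this permutation cannot give less than 0.1, so it decides nothing here.

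**Figure D3:**
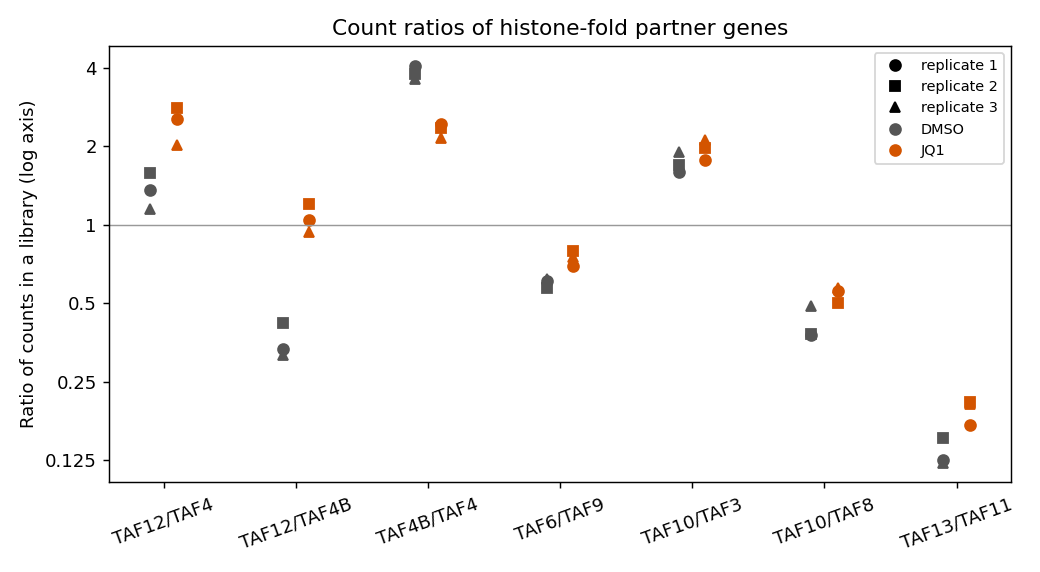
Ratio of the counts of 7 pairs of TFIID genes within each library (vertical log axis; 1 means equal counts), grey for DMSO and orange for JQ1, with symbols for the replicate number. TAF12 over TAF4B lies near 0.335 in DMSO and near 1.05 in JQ1, and the groups overlap for TAF10 over TAF3 alone.

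The promoter sequences of TAF12, TAF10 and GTF2B, the 3 largest rises, and of TAF4B, the largest fall, are shown to compare the elements before their RefSeq start sites. Each run is the 250 bases before the RefSeq start on GRCh38.p14, on the strand of the gene. This start can differ from that of the GENCODE gene. The windows of TAF10, GTF2B and TAF4B lie wholly inside the GENCODE gene, and that of TAF12 overlaps its edge. Bases before the GENCODE start of TAF10, GTF2B and TAF4B are thus outside their windows. Which start the cells used was not tested, and all distances and motif counts refer to the RefSeq start. Capitals mark TATAAA (the TATA box), CACGTG (an E-box, the element bound by MYC and MAX), CCGGAAG (the core of ETS factor sites), TGCGCA (part of the NRF1 site) and GGGCGG (the GC box of SP factors), searched on both strands. The windows are chr1:28643068-28643317 (minus strand), chr11:6612217-6612466 (minus strand), chr1:88891568-88891817 (minus strand) and chr18:26226195-26226444 (plus strand), in this order.
TAF12: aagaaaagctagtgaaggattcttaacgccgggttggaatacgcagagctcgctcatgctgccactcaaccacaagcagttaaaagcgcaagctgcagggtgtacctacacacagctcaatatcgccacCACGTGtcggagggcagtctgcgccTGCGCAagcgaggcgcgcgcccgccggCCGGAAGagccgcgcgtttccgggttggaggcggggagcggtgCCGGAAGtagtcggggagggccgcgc
TAF10: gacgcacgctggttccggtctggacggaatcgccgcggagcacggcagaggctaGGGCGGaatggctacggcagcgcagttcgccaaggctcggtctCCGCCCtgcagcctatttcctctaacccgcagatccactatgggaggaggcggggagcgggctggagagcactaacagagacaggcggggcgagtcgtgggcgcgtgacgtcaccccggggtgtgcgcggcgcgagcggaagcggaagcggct
GTF2B: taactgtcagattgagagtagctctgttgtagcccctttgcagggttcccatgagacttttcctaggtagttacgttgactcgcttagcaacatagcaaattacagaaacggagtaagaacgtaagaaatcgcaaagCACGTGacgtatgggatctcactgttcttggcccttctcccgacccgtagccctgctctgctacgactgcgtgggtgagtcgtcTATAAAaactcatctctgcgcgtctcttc
TAF4B: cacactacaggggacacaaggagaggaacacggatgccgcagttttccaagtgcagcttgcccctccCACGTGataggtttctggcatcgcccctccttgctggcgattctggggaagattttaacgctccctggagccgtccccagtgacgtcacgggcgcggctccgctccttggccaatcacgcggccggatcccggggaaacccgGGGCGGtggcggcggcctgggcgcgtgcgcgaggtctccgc

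GTF2B had TATAAA beginning 29 bases before its RefSeq start. It was the only one with these letters among the called members that had a window. Over the member windows TATAAA was in 2 of 36 (5.56%), those of GTF2B and TAF11L12, against 9.23% of 15843 promoters of protein-coding genes. CACGTG stood 121 bases before the RefSeq start of TAF12, 113 before that of GTF2B and 183 before that of TAF4B. It was absent from the TAF10 window, which does not reach the GENCODE start of TAF10. A window was found for 36 of the 41 members, among them 6 of the rises and 3 of the falls. Tested genes held 32 of these windows, while the 15843 promoters include those of genes that were not tested. The percentages of members and of all promoters thus compare unlike sets. Of these 36 windows 7 held CACGTG (19.4%, against 7.84% of all promoters), 2 of genes that rose (TAF12 and GTF2B) and 2 of genes that fell (TAF4B and GTF2H1). CCGGAAG was in 12 of the 36 (33.3%, against 11.8%), again 2 that rose and 2 that fell, and TAF12 held it at 69 and at 26 bases before the start. GGGCGG was in 47.2% of the windows and 56.0% of all promoters, TGCGCA in 16.7% and 9.10%, CCAAT in 36.1% and 34.5%, and AAGATGG (part of the YY1 site) in 2.78% and 3.35%. The E-box, the ETS core, the GC box and TGCGCA were each found before genes that rose and before genes that fell. CCAAT was found before 1 called gene, TAF4B, which fell, and is not marked in the sequence shown.

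TAF15, an RNA-binding protein that was found in part of TFIID, had 42.9, 45.6 and 55.4 CPM in DMSO and 65.8, 52.9 and 75.9 CPM in JQ1. JQ1 replicate 2 lay below DMSO replicate 3, so the groups overlapped, while JQ1 was the higher library within each replicate number. TAF15 rose by 0.43 ± 0.14 (edgeR adjusted p = 0.036). TAF15 did not pass when JQ1 replicate 1 or 3 or DMSO replicate 1 or 2 was left out (0.31 to 0.42, edgeR adjusted p between 0.085 and 0.12) or when libraries were scaled by size alone (0.37, adjusted p = 0.094).

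The TAFs of other complexes were not called. Of the 4 SL1 genes 0 rose and 0 fell with edgeR, where 15.9% and 20.6% of all tested genes did. With DESeq2 the SL1 counts were also 0. At an unadjusted edgeR p under 0.05 they were 0 too, where 21.4% and 24.7% of all tested genes were higher and lower. The SL1 log2 changes ran from -0.24 (TAF1C) to 0.08 (TAF1B). TAF1C had 36.3, 34.9 and 48.2 CPM in DMSO and 31.8, 31.7 and 37.6 CPM in JQ1 (-0.24 ± 0.14, edgeR adjusted p = 0.18). JQ1 replicate 3 lay above 2 DMSO libraries, yet JQ1 was lower within each number, and with the replicate block the adjusted p was 0.0088. The SAGA subunits TAF5L and TAF6L, relatives of TAF5 and TAF6, had changes of -0.20 ± 0.12 and -0.05 ± 0.13. TAF5L had an edgeR adjusted p of 0.22, and 0.010 with the replicate block.

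The rise among the general factors was that of GTF2B, the gene of TFIIB, which bridges TBP and the polymerase. GTF2B (ENSG00000137947.11, chromosome 1, 88852932 to 88891944, minus strand) had 57.4, 53.2 and 46.2 CPM in DMSO and 81.5, 79.0 and 71.3 CPM in JQ1. All JQ1 libraries were higher than all DMSO libraries, and GTF2B rose 1.48-fold (log2 change 0.56 ± 0.10, edgeR adjusted p = 0.0018). The GTF2B count was 1.54, 1.52 and 1.30 times the TBP count in DMSO and 2.36, 2.71 and 2.02 times in JQ1. The TFIIA genes GTF2A1 and GTF2A2, which stabilise TBP on DNA, had changes of 0.18 ± 0.11 and 0.16 ± 0.10 (edgeR adjusted p = 0.21 and 0.24), and GTF2A1 was called with the replicate block (adjusted p = 0.027). The TFIIE genes GTF2E1 and GTF2E2 had 0.16 ± 0.14 and -0.01 ± 0.08.

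The falls among the general factors were GTF2F1 and GTF2H1. GTF2F1, the large TFIIF subunit, had 99.8, 97.2 and 99.9 CPM in DMSO and 81.2, 88.2 and 81.8 CPM in JQ1, without overlap. GTF2F1 fell by 0.24 ± 0.08 (edgeR adjusted p = 0.036), which makes it the smallest called change among the members. The call was lost with DESeq2 (adjusted p = 0.068), with no filter on low counts (edgeR adjusted p = 0.061) and without any single library other than JQ1 replicate 2 (-0.25 to -0.22, edgeR adjusted p from 0.075 to 0.12). GTF2F2, the small subunit, had -0.16 ± 0.09 (edgeR adjusted p = 0.18, and 0.038 with the replicate block). GTF2H1, the TFIIH core subunit p62, had 97.8, 89.4 and 94.9 CPM in DMSO and 77.8, 70.8 and 71.6 CPM in JQ1. GTF2H1 fell by 0.36 ± 0.08 (edgeR adjusted p = 0.0073), with JQ1 lower in 3 of 3 replicate numbers.

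The other TFIIH genes of the rule were not called. GTF2H3 and GTF2H5, subunits of the TFIIH core, had 0.15 ± 0.10 and 0.17 ± 0.10 (edgeR adjusted p = 0.28 and 0.21, and 0.045 for GTF2H3 with the replicate block). GTF2H2 and GTF2H2C are copies in a duplicated region of chromosome 5. Of their distinct runs of 50 bases, 65.4% and 76.2% also occur in transcripts of other genes, so reads that fit several places went uncounted. They had 40 to 72 and 58 to 120 counts per library, and their levels and changes (0.17 ± 0.21 and -0.23 ± 0.20) are uncertain. GTF2H4 had the lowest level per kilobase of all tested members. It had 9, 18 and 15 counts in DMSO and 14, 9 and 10 in JQ1, which is 0.443, 0.707 and 0.568 CPM and 0.566, 0.422 and 0.645 CPM. VARS2 covers 79.0% of the GTF2H4 exons on the same strand, where reads count for neither gene, so this level does not measure the gene's RNA.

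Levels per kilobase of exon placed TAF7 first, with 44.8 ± 2.77 CPM per kb in DMSO and 58.8 ± 2.02 in JQ1 (SD, n = 3). GTF2F1 followed with 31.6 ± 0.490 CPM per kb in DMSO, GTF2E2 with 27.8 ± 0.962, TAF11 with 25.6 ± 1.57 and TAF1D with 23.6 ± 0.629. The gap between TAF11 and TAF1D was close to their spread, and TAF1D, GTF2B (23.5 ± 2.54) and TAF2 (23.1 ± 0.851) did not differ beyond it. TBP was 9th of 36 at 15.5 ± 0.534 CPM per kb, TAF3 at 3.74 ± 0.0731 and TAF4 at 1.87 ± 0.0816. Under JQ1 GTF2B reached 34.7 ± 2.39 CPM per kb, above GTF2F1 with 26.7 ± 1.23. TAF12 went from 10.7 ± 1.57 to 20.3 ± 0.925 CPM per kb, and TBP had 14.2 ± 1.43 in JQ1. With the principal transcript length TAF12 (18.4 ± 2.70) and TBP (18.9 ± 0.650) did not differ beyond their spread in DMSO, and TAF12 was higher in JQ1 (34.9 ± 1.59 against 17.3 ± 1.75). These lengths join all annotated exons, and with the principal transcript alone, a length chosen after the data were seen, 31 of 36 levels moved by more than their SD. TAF1D then came first at 95.6 CPM per kb in DMSO, TAF7 second at 52.3, and TAF10 moved from 5.17 to 26.0. Other genes, among them snoRNAs, cover 11.2% of the TAF1D exons on the same strand. The order is therefore a description under 1 choice of length.

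**Figure D4:**
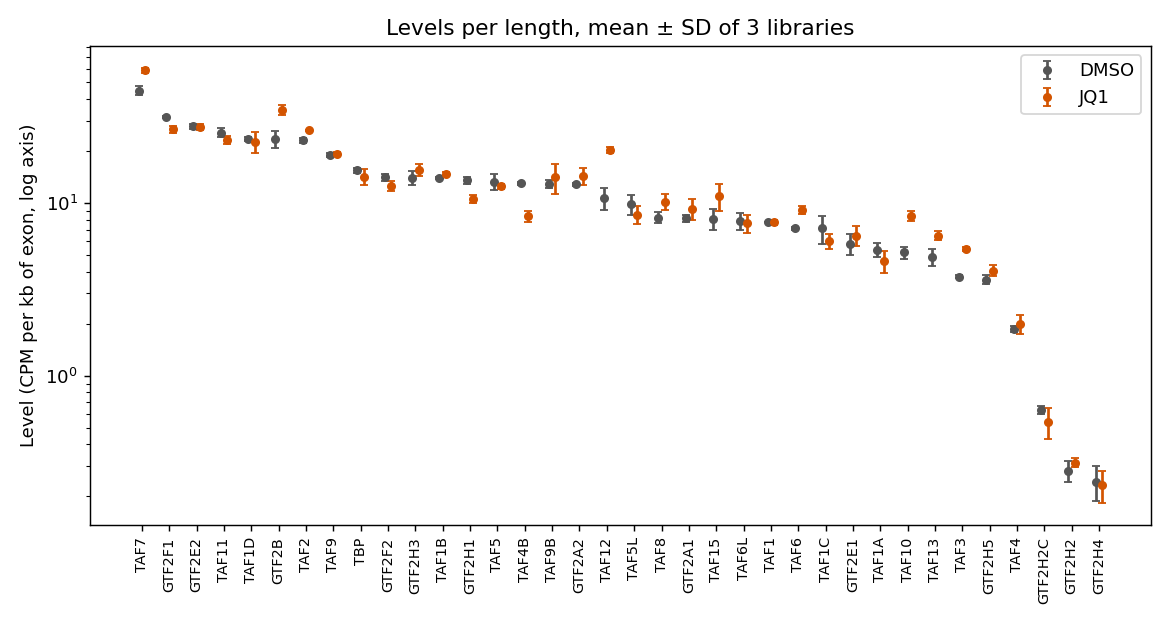
Level in CPM per kilobase of exon (vertical log axis, mean ± SD of 3 libraries) of the 36 tested genes, ordered by the DMSO level, with DMSO in grey and JQ1 in orange. TAF7 is highest at 44.8, TBP lies at 15.5, and GTF2H2C, GTF2H2 and GTF2H4 lie below 1.

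Of 44 genes that work with these factors but fall outside the rule 43 were tested. Of these 2 rose and 11 fell, with a median log2 change of -0.07. Over all tested genes 15.9% rose and 20.6% fell, with a median of 0.00. No partner gene was higher without JQ1 replicate 1 or 3, DMSO replicate 2 or 3, or with scaling by size alone, and 7, 6 and 7 were lower without JQ1 replicate 2, JQ1 replicate 3 and DMSO replicate 1. Of the 13 calls 5 held in all 12 alternatives (KAT2A, GTF3A, GTF3C2, GTF3C6 and GTF2I). With the replicate block 9 partner genes were higher and 17 lower, where 27.3% and 29.6% of all tested genes were called. The 5 remaining TFIIH genes (the helicases ERCC2 and ERCC3, the kinase CDK7, its cyclin CCNH and MNAT1) had 0 higher and 0 lower with edgeR, with DESeq2 and at an unadjusted edgeR p under 0.05, and changes from -0.16 to 0.10. Among relatives and regulators of TBP, DRAP1, a subunit of the repressor NC2, fell by 0.37 ± 0.10 (edgeR adjusted p = 0.014, and up to 0.058 without JQ1 replicate 1 or 3), and its partner DR1 had 0.16 ± 0.08 (edgeR adjusted p = 0.15, and 0.026 with the replicate block). BTAF1 and TBPL1 had 0.16 ± 0.11 and 0.23 ± 0.10 (edgeR adjusted p = 0.27 and 0.082, and 0.031 and 0.011 with the replicate block).

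Against 15.9% of all tested genes higher and 20.6% lower, SAGA had 1 of 16 other genes higher and 3 lower. SAGA itself shares some TAFs with TFIID. KAT2A, an acetyltransferase of SAGA, had 60.4, 51.5 and 67.7 CPM in DMSO and 34.0, 32.7 and 37.6 CPM in JQ1. KAT2A fell by 0.79 ± 0.11 (edgeR adjusted p = 0.00054). The acetyltransferase gene KAT2B of the same list was not called, with means of 94.6 CPM in DMSO and 90.3 CPM in JQ1. Its log2 change was -0.07 ± 0.08 (edgeR adjusted p = 0.57). The adaptor genes TADA1 and TADA3 fell by 0.34 ± 0.09 and 0.29 ± 0.10 (edgeR adjusted p = 0.017 and 0.049), and ENY2 rose by 0.29 ± 0.10 (edgeR adjusted p = 0.034). These 3 calls were each lost when single libraries were left out (JQ1 replicate 2 or DMSO replicate 1 for TADA1, every library but DMSO replicate 1 for TADA3, and JQ1 replicate 1 or 3 or DMSO replicate 2 or 3 for ENY2), with edgeR adjusted p up to 0.06, 0.17 and 0.12. TADA3 also lost its call with DESeq2 (adjusted p = 0.075) and RLE factors (0.056), and ENY2 with scaling by size alone (0.070) and unstranded counts (0.055). Both RNA polymerase I factors examined fell: UBTF by 0.43 ± 0.14 and RRN3 by 0.31 ± 0.09 (edgeR adjusted p = 0.037 and 0.019). UBTF lost its call without JQ1 replicate 3 or DMSO replicate 1 or 2 and RRN3 without JQ1 replicate 2 or 3 or DMSO replicate 1 (edgeR adjusted p up to 0.12 and 0.067).

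The factors of RNA polymerase III had 1 of 10 genes higher and 4 lower, beside 15.9% and 20.6% of all tested genes. GTF3C6, a small subunit of TFIIIC, had 77.2, 60.6 and 63.6 CPM in DMSO and 19.8, 13.3 and 13.9 CPM in JQ1. All JQ1 libraries lay far below all DMSO libraries, with a log2 change of -2.09 ± 0.16 (edgeR adjusted p = 2.1e-05). GTF3A, the 5S ribosomal RNA factor TFIIIA, fell by 0.68 ± 0.08 and GTF3C2 by 0.36 ± 0.09, while GTF3C1, the largest TFIIIC subunit, rose by 0.27 ± 0.08 (edgeR adjusted p = 0.00021, 0.0087 and 0.024). The GTF3C1 call was lost without JQ1 replicate 1 or 3 or DMSO replicate 2 or 3, with scaling by size alone and with no filter (edgeR adjusted p up to 0.079). GTF2I, which carries the TFII name but is a sequence-specific factor, fell by 0.54 ± 0.09 (edgeR adjusted p = 0.0014), and its 3 relatives had changes from -0.76 to -0.27 without a call. With the replicate block GTF2IRD2 and GTF2IRD2B were called lower (adjusted p = 0.0070 and 0.0066), and with scaling by size alone GTF2IRD2 was (adjusted p = 0.046).

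**Figure D5:**
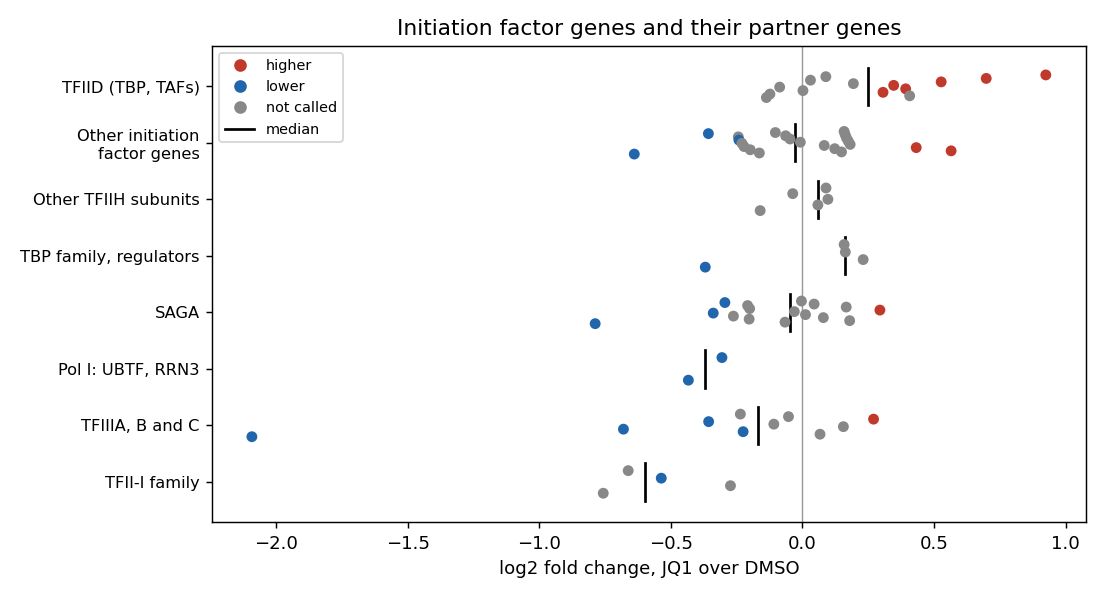
Log2 fold change of JQ1 over DMSO (horizontal axis) for TFIID genes, the other initiation factor genes of the rule and 6 lists of partner genes, 1 point per tested gene (red rose, blue fell, grey not called), with a black bar at each median. The TFIID row leaves out the paralogs TAF4B and TAF9B and has its median at 0.25. GTF3C6 at -2.09 is the point farthest from 0.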

How the data were processed

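Stranded libraries were made from the total RNA of ALL-SIL cells, 3 per group, per the labels' protocols. The deposited files hold raw read counts per gene made by the authors; the submitters' processing notes name GRCh38. Their layout, with 1 unstranded and 2 stranded columns, is that of STAR's gene counts; its version and the annotation release are not stated in these sources. The column of the strand that held 20.9 to 22.6 times the reads of the other was used. Lines for unmapped (1.48% to 1.99% of reads), multimapping (14.2% to 15.7%), ambiguous (3.38% to 3.88%) and unassigned reads (18.8% to 26.1%) were left out. Reads that fit several places or genes were thus lost for copied and overlapping genes. Symbols, exons and positions came from GENCODE 29, which held 52 protein-coding genes of the rule, 41 of them among the 58096 genes of the count files; the other 11, all TAF11L copies, were not analysed here.

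Counts were filtered (edgeR filterByExpr, minimum count 10, minimum total 15) and scaled with TMM factors (0.965 to 1.06). They were tested with edgeR 4.0.16 in R 4.3.3 (quasi-likelihood, robust, group only, adjusted p threshold 0.05). The same procedure was run on simulated counts with known changes, and its recovery is not given here. A member without a call may still have changed by an amount the test did not detect. Libraries of the same group differed by more than sampling noise (chi-square per degree of freedom 14.8 to 32.4). Same-numbered libraries deviated together (correlations of deviations from group means 0.412, 0.528 and 0.463, against -0.309 to -0.176 for other pairs), so a fit with the replicate number as a block was read beside the results. The other alternatives were DESeq2 1.42.0, RLE factors, library size only, no filter, unstranded counts and each library left out. Every library's value is given for TBP, each called member and the members highest and lowest per kilobase, and for other members where the text describes them, which were chosen after their values were seen; of partner lists each called gene is named, or the 4 with the smallest p. Members, roles and lists were chosen with earlier results of these data known. Promoter windows came from RefSeq (GRCh38.p14). The genes of 1 partner list, which stay in the partner gene counts and median, are not reported here by name.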

Additional observations from a re-analysis of the deposited data

How the results depend on the processing

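Of the 11 called members 7 kept direction and call in all 12 alternatives (TAF12, TAF10, GTF2B, TAF3, TAF7, TAF4B and GTF2H1), and GTF2F1, TAF15, TAF8 and TAF6 lost the call in at least 1; beyond the changes named here the cause was not tested. With 1 library left out, 6 to 7 members were higher and 2 to 3 lower, as were 1707 to 1901 and 2436 to 2627 of all genes, and 0 to 3 and 6 to 10 partner genes. With the replicate block 6 members were lower in place of 3, 3813 of all genes were higher in place of 2227, and 9 and 17 partner genes were higher and lower in place of 2 and 11. The block gave a smaller coefficient of variation (0.0595 against 0.126); it added calls for GTF2A1, GTF2H3, TAF13, TAF2, TAF1C, TAF5L and GTF2F2 and changed no other member's call. Partner genes called higher were 0 with library size only, 1 with no filter and 1 with unstranded counts. Signs turned only for members without a call. The log2 change of GTF2E2 became 0.0029 with RLE factors, that of TAF9 -0.0317 with library size only, and that of TAF1 -0.0606 with library size only, -0.0154 with no filter and -0.0132 with unstranded counts. With 1 library left out the log2 change ran from -0.0357 to 0.0209 for GTF2E2, -0.2384 to 0.0798 for GTF2H4, -0.0137 to 0.0301 for TAF1, -0.123 to 0.0498 for TAF1D, -0.0126 to 0.1571 for TAF4, -0.1471 to 0.0033 for TAF5, -0.135 to 0.0379 for TAF6L and -0.0494 to 0.2281 for TAF9B. Of 36 levels per kilobase 31 moved by more than 1 SD with the principal transcript length. GTF2H4, GTF2H2 and GTF2H2C had 9 to 120 counts per library, which limits their precision.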
